A study of Monodelphis domestica and Mus musculus with 2 samples.

Results

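The cells described here are the L2/3 neurons of the mouse primary visual cortex (V1), taken as the cells that passed the authors' filter, lay in 1 of their V1 regions and carried both the subclass label L2/3 and the class label glutamatergic. There were 1406 of them among 9127 mouse V1 cells and 200608 cells in the whole series. The study compared the organization of cell types in V1 between the gray short-tailed opossum and the mouse, and the data are Stereo-seq, in which a section lies on a chip of barcoded spots and every captured RNA molecule, counted by its unique molecular identifier (UMI), is assigned a location and from there a segmented cell. The mouse sample was 1 section of 10 µm, cut from a block in which coronal brain slices were embedded together, of 1 adult male wild-type C57BL/6J mouse at about postnatal day 40, without any treatment. The opossum sample was not used here. The comparison addressed is what sets L2/3 neurons apart from the other glutamatergic subclasses of the same 4 V1 regions.

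Neurons of layer 2/3 are intratelencephalic: their axons stay within the cortex and reach other cortical areas and the opposite hemisphere. In V1 they receive much of their excitatory input from layer 4, the main target of the visual thalamus, and they continue to change with visual experience after birth. They are commonly recognized by the transcription factor Cux2, the calcium-binding protein calbindin (Calb1), the Ras activator Rasgrf2 and the vesicle fusion protein otoferlin (Otof).

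Labels were transferred by the authors from an snRNA-seq atlas according to expression, in 3 rounds with falling agreement among neighbors. A difference in expression between labeled subclasses therefore describes the labels and was not tested. With 1 mouse there are no replicates, the V1 regions come from the same animal and chip, and no p-value was computed. Which regions share a brain slice is not given in the sources used here. Levels are UMIs per 10000 UMIs summed over cells, and every interval is an exact 95% interval that covers counting error only. RNA of neurons was also counted in other cells: Slc17a7, the vesicular transporter of glutamatergic neurons, stood at 9.56 (9.12 to 10.0) in L2/3 and at 10.8 (10.4 to 11.2) in cells of non-neuronal class. The median L2/3 cell held 1249.5 UMIs and 809 genes, against 1245 UMIs in non-neuronal cells, and all L2/3 cells together held 1806834 UMIs.

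L2/3 cells made up 26.4% (25.2 to 27.6) of the 5322 cells of glutamatergic class that had a glutamatergic subclass label, and these 5322, of 6245 in the class, are the glutamatergic cells meant below. The share was 26.2% in V1 region 1 (516 cells), 29.9% in region 2 (286 cells), 22.4% in region 3 (245 cells) and 27.6% in region 4 (359 cells). Regions 2 and 3 had intervals that did not overlap, at 27.0 to 32.9% and 19.99 to 25.03%. Depth was measured from the top of each region, which the authors drew at the upper border of layer 2/3. The orientation of this axis was set by the medians of L2/3 and L6CT, so that only distances are described.

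L2/3 cells formed 71.8% of glutamatergic cells in the first 50 µm, 69.7% between 50 and 100 µm, 64.6% between 100 and 150 µm and 45.0% between 150 and 200 µm, where L4 cells (224) were about as many as L2/3 cells (211). The share dropped to 11.3% between 250 and 300 µm. It lay between 12.3 and 15.3% from 300 to 500 µm, at 9.14% from 500 to 550 µm, and fell to 1.05% in the last bin. Cells labeled in the first round, on which all neighbors agreed, numbered 767 and had a median depth of 108 µm. The 470 cells of the second round lay at 169 µm and the 169 cells of the third at 205 µm, so that the less certain labels were also the deeper ones. First-round cells were 60.1, 54.9, 44.1 and 53.5% of L2/3 cells in regions 1 to 4.

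**Figure D1:**
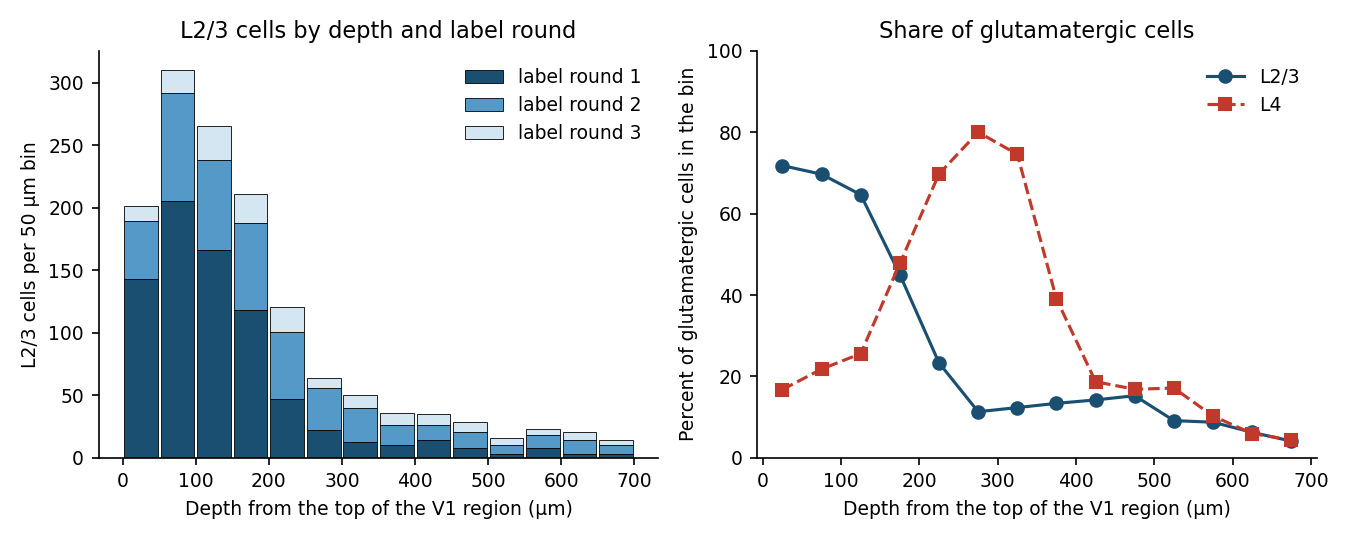
The left panel shows the number of L2/3 cells per 50 µm of depth (µm from the top of the V1 region), stacked by the round in which the label was given. The right panel shows the percentage of glutamatergic cells in each bin that were L2/3 or L4. L2/3 falls from 71.8% in the first bin to 11.3% between 250 and 300 µm and lies between 12.3 and 15.3% down to 500 µm and at 4.11% between 650 and 700 µm.

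L2/3 cells lay among their own kind. Of the 10 nearest labeled cells of an L2/3 cell, 39.9, 45.2, 33.8 and 47.2% were L2/3 in regions 1 to 4, against 18.1, 21.9, 15.7 and 20.3% of all labeled cells there. L4 cells made up 23.8 to 34.2% of these neighbors, close to their 22.2 to 30.9% of labeled cells. Oligodendrocytes were 0.979 to 4.13% of the neighbors and 5.84 to 8.17% of labeled cells. The nearest labeled cell was 11.4 to 12.4 µm away at the median and the tenth 28.0 to 31.3 µm.

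Cux2 (chromosome 5, 121994429 to 122188521, minus strand, GRCm39), Calb1 (chromosome 4, 15881155 to 15908085, plus strand) and Rasgrf2 (chromosome 13, 92027891 to 92269375, minus strand) were at their highest pooled level in L2/3 cells, and Otof was too sparse to order. Cux2 stood at 2.42, 1.66, 2.00 and 2.05 UMIs per 10000 in L2/3 cells of regions 1 to 4 and at 0.807, 1.17, 0.702 and 1.08 in the other glutamatergic cells. The groups did not overlap, but in region 2 the levels of Cux2 lay closest together, with a ratio of 1.41. Calb1 was at 1.80, 2.84, 2.44 and 2.23 in L2/3 against 0.896, 0.760, 0.917 and 0.899. Rasgrf2 was at 2.61, 2.19, 1.72 and 2.26 against 0.695, 0.780, 0.925 and 0.801. For both genes every region of L2/3 lay above every region of the other glutamatergic cells. Pooled over regions, the ratio was 2.32 (2.03 to 2.65) for Cux2, 2.52 (2.21 to 2.88) for Calb1 and 2.93 (2.56 to 3.36) for Rasgrf2. Otof had 42 UMIs in all 1406 cells, a level of 0.232 (0.168 to 0.314) against 0.0699 (0.0499 to 0.0952) in the other glutamatergic cells.

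In the order of subclasses, L4 followed L2/3 for 3 of these markers. Cux2 stood at 1.57 (1.41 to 1.73) in L4, Calb1 at 1.21 (1.08 to 1.36) and Rasgrf2 at 1.18 (1.05 to 1.33), all with intervals below those of L2/3. Among L4, L5IT and L6IT, Calb1 did not differ beyond counting error, at 1.05 (0.660 to 1.60) in L5IT and 0.960 (0.735 to 1.23) in L6IT. L6CT, the corticothalamic cells of layer 6, were among the lowest, at 0.389 for Cux2, 0.550 for Calb1 and 0.384 for Rasgrf2. Relative to L4, Cux2 was 1.35 times higher in L2/3 overall but lower in region 2, where L4 cells reached 2.31 and L2/3 cells 1.66.

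**Figure D2:**
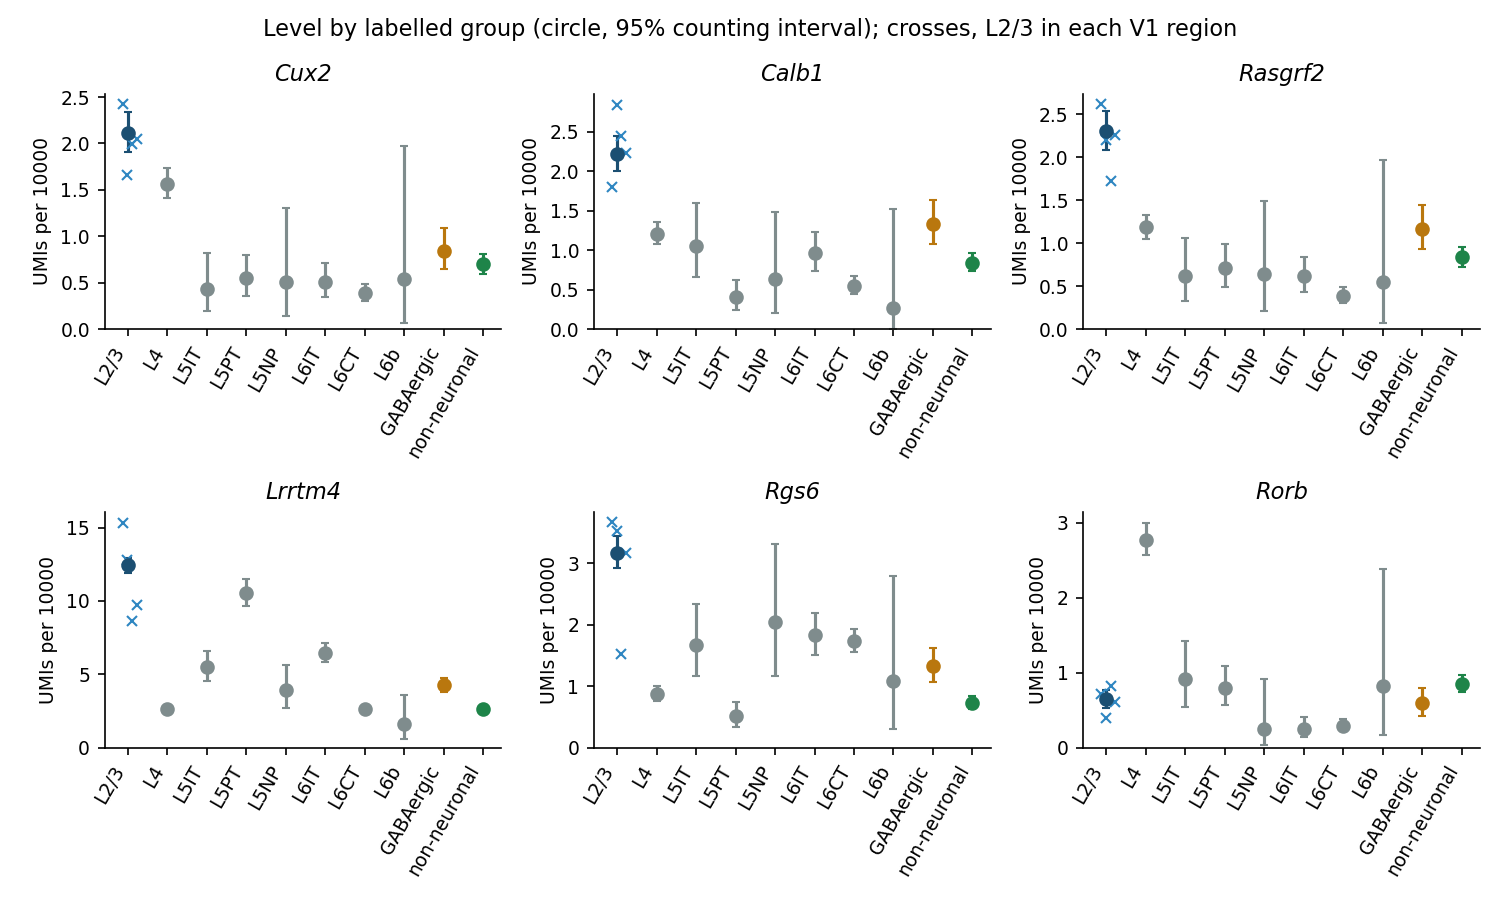
Levels of 6 genes in UMIs per 10000 (linear axes from 0) for each glutamatergic subclass and for the GABAergic and non-neuronal classes. Circles are pooled levels with exact 95% counting intervals and crosses are L2/3 cells of each V1 region. Cux2, Calb1 and Rasgrf2 are highest in L2/3, Lrrtm4 is also high in L5PT (10.5), and Rorb is high in L4 (2.78) and low in L2/3 (0.642).

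Few single cells showed a marker. After each cell was thinned to 300 UMIs, which left out 16 L2/3 cells, 6.62% of L2/3 cells held a Cux2 UMI, 5.90% a Calb1 UMI and 5.40% a Rasgrf2 UMI, against 1.96, 3.21 and 3.05% of non-neuronal cells (37 cells left out). Without thinning the L2/3 shares were 18.5, 18.3 and 19.3%. Lrrtm4 was found in 23.1% of thinned L2/3 cells (20.9 to 25.4) and 6.97% of non-neuronal cells, and in 51.0% of L2/3 cells without thinning. Rorb, the layer 4 transcription factor, was found in 1.65% of L2/3 cells and 2.40% of non-neuronal cells, so that its share in L2/3 is no higher than the background.

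Across genes, a gene was called when its pooled level differed at least 1.5-fold and in the same direction in all 4 regions. Against the 3916 cells of the other glutamatergic subclasses, 7079 genes had the required 200 UMIs. Of these, 104 (1.47%) were higher in L2/3 and 154 (2.18%) were lower. Of the called genes, 21 were at least 2-fold higher and 45 at least 2-fold lower. The median ratio over all genes tested was 0.986. The UMI filter could be passed through the more numerous other cells alone, so the higher and lower counts are not compared with each other. With a filter on the mean level of both sides in place of summed UMIs, 40 genes were higher and 32 lower.

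The highest ratio belonged to Lrrtm4, a postsynaptic adhesion protein of excitatory synapses encoded on chromosome 6 (79995860 to 80787124, plus strand, GRCm39). Its level was 15.3, 12.8, 8.64 and 9.75 in L2/3 cells of regions 1 to 4 and 4.40, 4.23, 3.17 and 3.31 in the other glutamatergic cells. All L2/3 values lay above all others, and the pooled ratio was 3.23 (3.04 to 3.43). It was not restricted to L2/3: L5PT, the pyramidal tract neurons of layer 5, stood at 10.5 (9.65 to 11.5), followed by L6IT at 6.46 and L5IT at 5.51, whereas L4 (2.65) and L6CT (2.60) did not differ from non-neuronal cells (2.66, 2.46 to 2.88).

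Of the others among the 12 highest, the cell adhesion protein Nectin3 had a ratio of 3.23 (2.57 to 4.06), the cell surface proteoglycan Gpc6 2.77 (2.25 to 3.41) and the contactin-associated protein Cntnap5a 2.36 (2.02 to 2.74). Sorcs3, a neuronal sorting receptor, reached 2.54 (2.21 to 2.92), and Gsg1l, an auxiliary subunit of AMPA receptors, 2.49 (2.05 to 3.02). Rgs6, which shortens G-protein signaling, was at 3.66, 3.52, 1.52 and 3.17 in L2/3 cells of the 4 regions and at 1.40, 1.53, 1.07 and 1.08 in the others. Region 3 was thus the lowest for Rgs6 in L2/3, and its L2/3 level lay within the range of the other glutamatergic cells of region 2. Tmem108 had a ratio of 2.42 and the ubiquitin ligase Pdzrn3 one of 2.24. Of these 12 genes, 10 were highest in L2/3 among the 8 subclasses and 2 came second, Sorcs3 after L6IT (2.72 against 2.03) and Cntnap5a after L5IT (3.11 against 1.68).

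The lowest ratio was that of Foxp2, a transcription factor of corticothalamic neurons, which had 18 UMIs in L2/3 and a ratio of 0.136 (0.0796 to 0.217), with levels of 0.0684 to 0.138 in the 4 regions against 0.642 to 0.784. Fezf2, which directs the subcortical projection of deep neurons, had a ratio of 0.281 (0.188 to 0.407). The heparan sulfate sulfotransferases Hs3st4 and Hs3st2 had ratios of 0.231 and 0.276, the guidance protein Sema3e 0.285, the cadherin Cdh18 0.285 and the transcriptional cofactor Zfpm2 0.290. The glycosyltransferase Mgat4c was at 0.267, Il1rapl2 at 0.250 and Ighm, the heavy chain of immunoglobulin M, at 0.238 with only 19 UMIs in L2/3.

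Gene lists were read against those background percentages. Of 10 upper-layer transcription factors tested, 4 were higher, namely Cux2, Cux1 (ratio 1.60), Lhx2 (1.69) and Bhlhe22 (1.52), and 1 was lower, Rorb (0.460). The list's median ratio was 1.28. Of 10 deep-layer transcription factors, none was higher and 5 were lower (Fezf2, Foxp2, Sox5, Tle4 and Zfpm2), with a median of 0.657. All 6 tested genes listed for L6CT were lower in L2/3, from Foxp2 to Tle4 (0.474). So were 3 of 5 genes listed for L5IT (Fezf2, Il1rapl2 and Tshz2) and 2 of 4 listed for L5PT (Bcl6 and Crym). Fezf2 also stands in the deep-layer list and is not particular to L5IT. Against L5IT itself only Il1rapl2 of those 5 had enough UMIs, and it was lower. These marker lists are known to name other subclasses, and the labels rest on expression. The counts therefore follow in part from the labeling and are no independent check of it. Genes low in L2/3 could also pass the UMI filter through the other subclasses alone. Lower genes are set against non-neuronal cells further below.

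Of 24 potassium channel genes tested, 3 were higher in L2/3 and 2 lower, with a median ratio of 1.03. Kcnip4, a subunit that modulates A-type potassium channels, was at 25.5, 18.3, 12.9 and 14.7 in L2/3 cells of regions 1 to 4 against 11.1, 11.9, 8.56 and 7.89, so that all L2/3 values lay above all others. Its level in L6IT, 20.3 (19.2 to 21.4), did not differ from the pooled 19.5 (18.8 to 20.1) of L2/3 beyond counting error. Kcnb2 (1.84) and Kcnq5 (1.52) were the other potassium channels that were higher, and Kcnh5 and Kcnk2 were lower. Among 11 GABA-A receptor subunits only Gabra2 was called, at a ratio of 2.14 (1.81 to 2.52). Among 12 ionotropic glutamate receptors none was higher and the kainate receptor subunits Grik1 (0.302) and Grik3 (0.484) were lower. Of 5 tested monoamine and acetylcholine receptors, the muscarinic receptor Chrm3 was higher (1.56) and the nicotinic receptor subunit Chrna4 lower (0.335).

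Of 38 adhesion and dendrite genes, 3 were higher (Lrrtm4, Sorcs3 and the semaphorin receptor Plxnd1) and 5 lower (Cntn5, Ncam2, Sema3e, Tenm1 and Tenm3). Among 17 genes of calcium and CaMKII signaling, Rasgrf2 and Camk2d (1.51) were higher, and among 10 calcium-binding proteins Calb1 was higher and Necab3 lower. Of 18 immediate early genes, which neurons transcribe after activity, 1 was called: the neurotrophin Bdnf was higher, at 0.808 against 0.502 (ratio 1.61, 1.31 to 1.97). Fos (ratio 1.09), Egr1 (0.949) and Arc (0.80) were not called. None of 16 respiratory chain genes and none of 14 genes of synaptic vesicles and glutamate transport was called in either direction, with median ratios of 0.966 and 0.95.

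Markers of other cell types were also counted in L2/3 cells. The 10 GABAergic markers summed to 14.4 in L2/3 (12.0 to 16.9 over regions), 13.2 in the other glutamatergic cells (11.9 to 14.5) and 27.5 in cells of GABAergic class. In that list Vip (ratio 1.90) and Lamp5 (1.65) were higher in L2/3. Whether this RNA came from interneurons or from the L2/3 cells was not tested. Gad1, the GABA-synthesizing enzyme, was at 1.78 in L2/3 and 1.80 in the other glutamatergic cells. Oligodendrocyte markers summed to 17.3 in L2/3 (12.1 to 21.4), 24.2 in the other glutamatergic cells (20.6 to 26.4) and 44.9 in non-neuronal cells, and 1 of 7, Mobp, was called lower (0.614). Astrocyte markers summed to 18.5, 19.3 and 28.1, and none of 6 tested was called. None of these lists was at 0 in L2/3, and their part in the differences was not tested.

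The most similar subclass in depth was L4, with 1879 cells. Of 4783 genes tested between them, 63 (1.32%) were higher in L2/3 and 70 (1.46%) lower. Lrrtm4 led again, with a ratio of 4.70 (4.30 to 5.14) and 3.66 to 5.13 over the regions. Rgs6 followed at 3.62 (3.08 to 4.26), Sorcs3 at 3.26 (2.68 to 3.97) and the GABA-A receptor subunit Gabrg3 at 3.07 (2.44 to 3.88). Ntrk3, the receptor of neurotrophin-3, had a ratio of 2.56, the secreted protein Tafa1 2.51, the lipid kinase Dgkb 2.44 and the synaptotagmin Syt17 2.50. Cntnap5a (2.66), Gsg1l (2.56) and Gpc6 (2.42) were also among the 12 highest. Tafa1, at 4.80 in L2/3 and 1.91 in L4, was highest in L5PT, at 10.8 (9.95 to 11.8).

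Genes lower than in L4 began with Grik1, at 0.133 against 0.772, a ratio of 0.172 (0.107 to 0.264). Rorb was at 0.711, 0.394, 0.826 and 0.605 in L2/3 cells of regions 1 to 4 and at 3.00, 3.03, 2.51 and 2.54 in L4 cells, without overlap, for a ratio of 0.231 (0.188 to 0.282). The potassium channel Kcnh5 (0.289), the zinc finger protein Zmat4 (0.257), Thsd7a (0.267), Galntl6 (0.314), Nell1 (0.324), the protocadherin Pcdh15 (0.336), Brinp3 (0.364) and Pamr1 (0.384) were the others of the 10 lowest. The AMPA receptor subunits went in opposite directions, with Gria3 higher in L2/3 (1.89, 1.72 to 2.09) and Gria4 lower (0.601, 0.527 to 0.684). At matched depth neither was called, at 1.48 and 0.778, and Grik1 was not called either, at 0.206 overall but 1.01 in region 2. Of the 8 upper-layer transcription factors tested, only Rorb was called. Cux1 was at 1.21 in L2/3 and 1.17 in L4, and Bhlhe22 at 0.686 and 0.626.

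Because L2/3 lies above L4, the comparison was repeated at matched depth, with L4 cells weighted to the number of L2/3 cells in each 50 µm bin of each region (1376 and 1857 cells). Of 4731 genes, 107 (2.26%) were then higher and 61 (1.29%) lower. In the bins down to 150 µm, 47, 97 and 105 L4 cells stood beside 201, 310 and 265 L2/3 cells. Few L4 cells thus carried much of the weight, while the UMI threshold used unweighted counts. Matched ratios have no interval, and whether depth or this weighting changed the calls was not tested. Of the genes called higher without matching, 31 were called again (49.2% of 63 and 29.0% of 107), and of those called lower 28 (40% of 70 and 45.9% of 61). Lrrtm4 kept a ratio of 4.58, Rgs6 3.17 and Rorb 0.288. The ratio of Gabrg3 was 3.84, of Tafa1 3.10 and of Ntrk3 2.68. Sorcs3 went from 3.26 to 2.20, and the values over regions then ranged from 1.35 to 8.45. Of the 3 markers tested only Calb1 was called at matched depth (1.53), as Cux2 (1.5) was below 1 in region 2 and Rasgrf2 (1.62) below 1 in region 3.

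**Figure D3:**
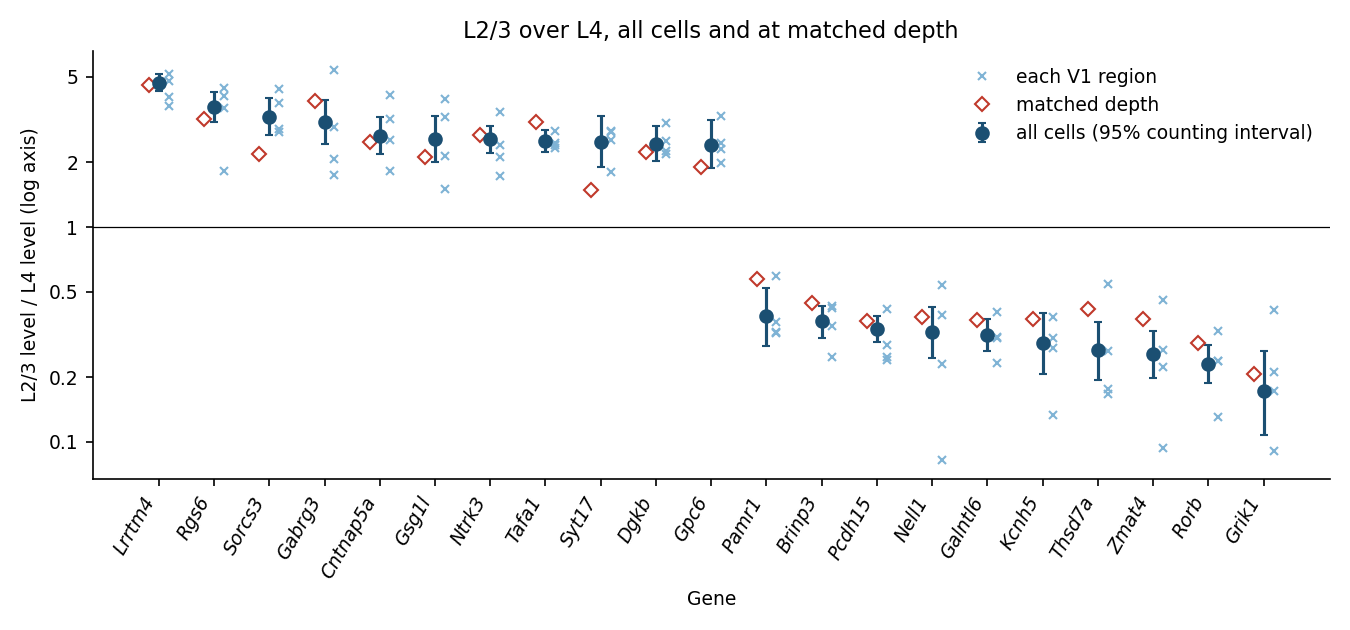
Ratio of L2/3 to L4 levels on a log axis for the genes named from the 12 highest and the 10 lowest called genes. Filled circles are all cells with 95% counting intervals, crosses are the 4 V1 regions and open diamonds are cells at matched depth. Lrrtm4 is at 4.70 with all cells and 4.58 at matched depth, and Rorb at 0.231 and 0.288.

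The contrast with L5IT, the intratelencephalic neurons of layer 5, rested on 133 cells. Of 2321 genes tested, 129 (5.56%) were higher in L2/3 and 60 (2.59%) lower. With a filter on the mean level of both sides in place of summed UMIs, 90 were higher and 89 lower, so the excess of higher calls rests on the filter, which genes can pass through the more numerous L2/3 cells alone. The 12 highest ratios came from 4 to 20 UMIs on the L5IT side and are given as values only. Mlip had a ratio of 6.21 (2.39 to 23.01), the calcium channel subunit Cacnb2 5.01 (2.27 to 13.8), Cux2 4.91 (2.56 to 10.8), Pdzrn3 4.74 (2.47 to 10.4) and Kctd16, an auxiliary subunit of GABA-B receptors, 4.58 (2.80 to 8.06). Pde7b, Kcnb2, Tmem132d, Prkg1, Rtn4rl1, Ntrk3 and Dnaaf9 followed, at 4.10 down to 3.27. Rasgrf2 was not called, with a pooled ratio of 3.70 (2.14 to 7.0) but 0.840 in 1 region.

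Il1rapl2 separated both subclasses most. L2/3 cells held 40 UMIs, a level of 0.221 (0.158 to 0.301), and L5IT cells 258 UMIs, a level of 12.4 (10.9 to 14.0), for a ratio of 0.0179 (0.0125 to 0.0251). L2/3 cells of region 3 held none, which allows a level of up to 0.103. Cntn5 (0.233) and Galntl6 (0.256) were next. Pcp4, a calmodulin-binding peptide, was at 2.22 in L2/3 and 5.36 in L5IT (0.414), and Gm49948, an annotated gene that overlaps it on the same strand, had 0.329, so their reads may not be separable. The phosphodiesterases Pde4b (0.433) and Pde1a (0.443), Efna5 (0.465), Ptprt (0.479) and the presynaptic complexin Cplx1 (0.489) made up the rest of the 10 lowest. Ptprt turned direction with first-round labels, at a log2 ratio of 0.68 over 29 L5IT cells. Of the list genes, the immediate early gene Fos was higher in L2/3, at 4.05 against 1.72 (2.35, 1.68 to 3.38).

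The genes that marked L2/3 were also set against cells of non-neuronal class, which the L2/3 label did not choose. The class label rests on expression too. A depth gradient of a gene in non-neuronal cells was measured as its level in the 471 cells above the L4 median over that in the 1402 cells below it. There, 50 of 2842 genes (1.76%) were higher above and 106 (3.73%) lower. The UMI filter could be passed through the 1402 cells below alone, so these counts are not compared with each other. Rasgrf2 was at 1.82 above and 0.575 below (3.16, 2.37 to 4.21) and Calb1 at 1.78 and 0.596 (2.98, 2.24 to 3.97). Cux2, with 170 UMIs too sparse for the threshold, was at 1.82 and 0.404 (4.50, 3.29 to 6.16). In all 4 regions these 3 genes were higher above L4. Lrrtm4 was at 3.48 and 2.45 (1.42, 1.19 to 1.69) and was not called, Tafa1 at 1.15 and 1.10 and Ntrk3 at a ratio of 0.891 (0.668 to 1.17).

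In the second measure, L2/3 cells were set against non-neuronal cells at matched depth and region. Of 4637 genes, 206 (4.44%) were higher in L2/3 and 110 (2.37%) lower. Here Lrrtm4 was at 3.53, Tafa1 at 3.88, Rgs6 at 3.77 and Sorcs3 at 3.03, each higher in all 4 regions. The markers Rasgrf2 (1.30), Cux2 (1.29) and Calb1 (1.21) were not called. Each was above 1 in only some of the regions, with Calb1 between 0.694 and 2.17, Cux2 between 0.905 and 1.51 and Rasgrf2 between 0.885 and 1.77. At equal depth the pooled level of these markers in L2/3 cells was thus 1.21 to 1.30 times that in non-neuronal cells, without an interval. Otof, too sparse for the threshold, went further, with 42 UMIs in L2/3 cells against 9 and a ratio of 7.70.

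Among the 104 genes higher than in the other glutamatergic subclasses, 29 had enough UMIs in both measures. Of these, 14 were called higher than in non-neuronal cells at matched depth and 9 were called higher in non-neuronal cells above L4, with 3 genes counted in both (Il1rapl1, Lingo2 and Sorbs2), and 9 were called in neither. None was called in the opposite direction in either measure. The 29 genes were chosen as higher in L2/3 cells, which are also 1 side of the matched-depth measure. Calls in that measure are therefore not independent of the choice. The first kind included the calcium channel Cacna1c (2.20), Kcnip4 (2.87), Kcnq5 (2.68), Chrm3 (1.96) and Ppfia2 (2.07), an organizer of presynaptic release sites. The second included Dact2 (3.07 in non-neuronal cells above L4 over below), Lamp5 (1.91), Stxbp6 (2.03) and the kinase Prkca (1.57), besides Rasgrf2 and Calb1. Of the 154 genes lower than in the other glutamatergic subclasses, 9 (5.84%) were also called lower than in non-neuronal cells at matched depth. Genes too sparse in that measure count as not called. Of 7 deep-layer transcription factors tested there, only Tle4 was lower, and the list's median ratio was 0.977. In non-neuronal cells above L4 over below, Bcl11b and Tbr1 of 6 tested were lower. The amount of RNA that spreads from neighboring cells was not measured, and its part in these calls was not tested.

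**Figure D4:**
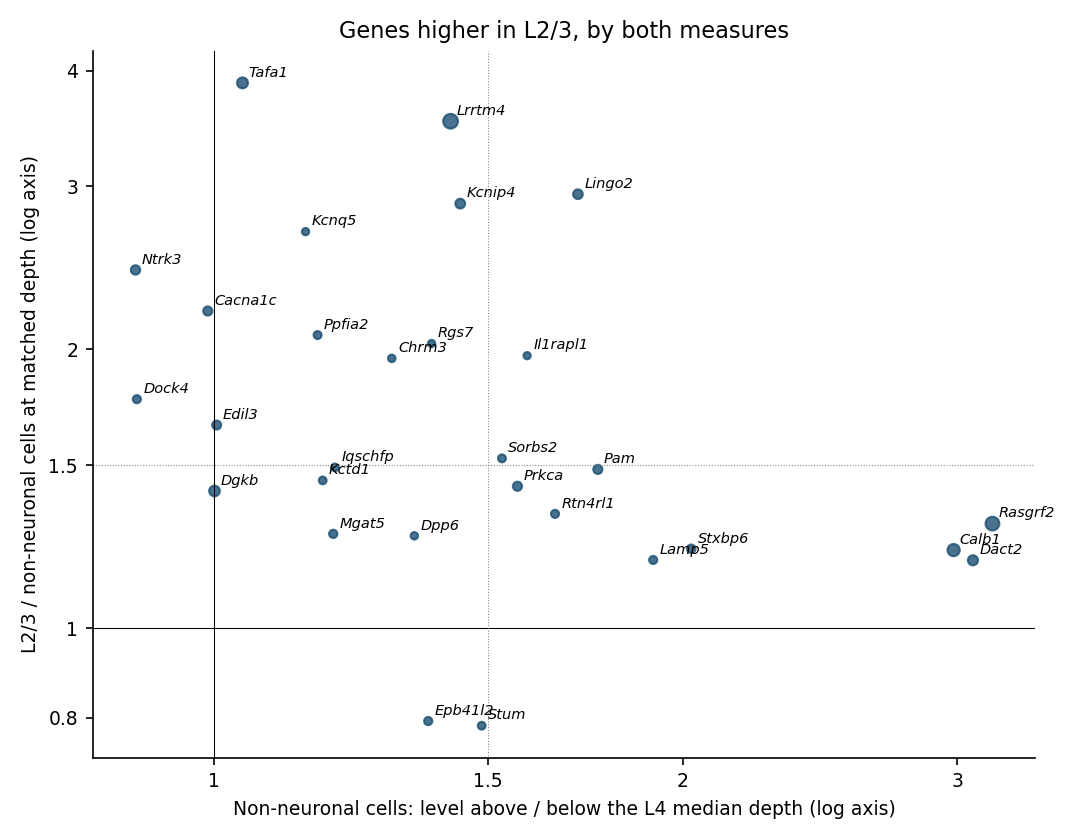
The 29 genes that were higher in L2/3 than in the other glutamatergic subclasses and had enough UMIs in both measures. The horizontal log axis is the level in non-neuronal cells above over below the L4 median and the vertical log axis is L2/3 over non-neuronal cells at matched depth. Point size grows with the ratio to the other glutamatergic subclasses and dotted lines mark 1.5. Rasgrf2 lies at 3.16 and 1.30, and Lrrtm4 at 1.42 and 3.53.

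The level of the leading genes followed the round in which the label was given. Rounds were set by agreement among neighbors in expression, so higher levels of L2/3 genes in the first round follow in part from that rule. Lrrtm4 was at 16.8 (16.1 to 17.7) in first-round cells, 6.86 (6.20 to 7.58) in the second round and 6.48 (5.46 to 7.64) in the third. Kcnip4 was at 27.4, 9.24 and 9.40, and Rgs6 at 4.19, 2.03 and 1.41. Rasgrf2 was at 2.99, 1.49 and 1.23, Cux2 at 2.55, 1.70 and 1.19 and Calb1 at 2.51, 2.07 and 1.23. Both later rounds thus stood well below the first for Lrrtm4 and Kcnip4 and did not differ from each other beyond counting error, but their Lrrtm4 still exceeded the 2.65 of L4 cells. Rorb showed no difference beyond counting error, at 0.580, 0.683 and 0.821. Region 1, with the highest share of first-round cells, also had the highest levels of Lrrtm4, Kcnip4, Rgs6 and Rasgrf2, and region 3, with the lowest share, had the lowest. Calb1 instead was lowest in region 1, and Cux2 was highest in region 1 but lowest in region 2. In the other glutamatergic cells Lrrtm4, Kcnip4 and Rgs6 were also higher in regions 1 and 2 than in regions 3 and 4. Rasgrf2 there went the other way, lowest in region 1 and highest in region 3. The median L2/3 cell held 1388 UMIs in region 1 and 1138 in region 3. The part of label rounds in these region differences was not tested.

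Within L2/3, the cells of each region were split by depth into terciles, and the upper tercile was compared with the lower (467 cells each, median depths of 56.1 and 302 µm). Of 1191 genes tested, 29 (2.43%) were higher in the upper tercile and 15 (1.26%) in the lower tercile. Calb1 was at 3.05 (2.61 to 3.54) in the upper, 2.48 (2.11 to 2.90) in the middle and 1.17 (0.916 to 1.47) in the lower tercile, with ratios of 2.28, 2.90, 3.8 and 2.31 in regions 1 to 4. Rasgrf2 was at 3.04, 2.50 and 1.43, and Cux2 at 2.44, 2.34 and 1.59. The intervals of the upper and middle terciles overlapped for each of these 3 genes. Edil3 (2.11), Dgkb (1.82) and the netrin receptor Unc5d (1.79) were the others of the 5 highest. Unc5d was at 3.22 in the middle.

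The lower tercile had more Pcp4, at 3.51 against 1.69 in the upper tercile (0.483, 0.375 to 0.616), and more of the overlapping Gm49948 (0.459). Vxn (0.541), Cplx1 (0.546) and the synaptic vesicle protein Syngr1 (0.560) followed. Arc, an immediate early gene, was also higher in the lower tercile, at 5.62 against 3.58. Lrrtm4 was not called, at 13.1, 13.5 and 10.7 from upper to lower tercile. First-round labels made up 318 of the 467 upper cells and 157 of the 467 lower cells, and their part in the gradient was not tested. With first-round labels only, 9 genes were higher and 7 lower in the upper tercile, of which 3 and 0 were among those called with all labels, although each of the 10 genes with the highest and lowest ratios kept its direction. Without region 1, 17 genes were higher and 9 lower. In non-neuronal cells Pcp4 had a ratio of 0.283 above over below L4 and Vxn 0.412, like Calb1 and Rasgrf2 in the direction seen within L2/3, whereas Edil3 and Dgkb were not called there.

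**Figure D5:**
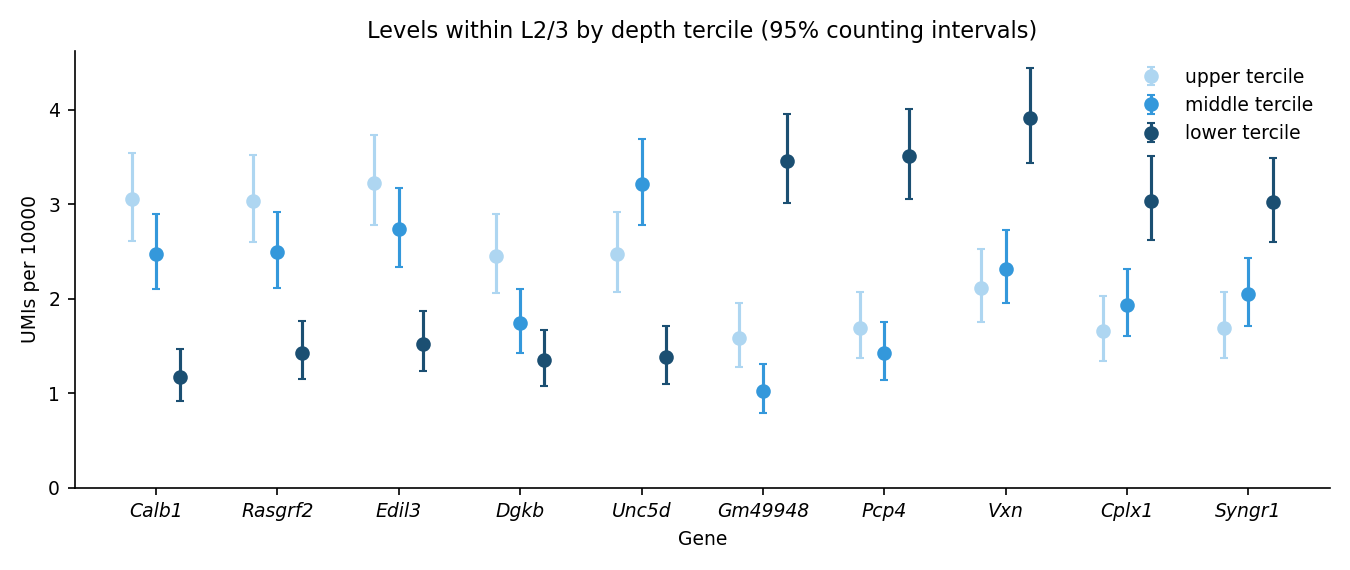
Levels in UMIs per 10000 (linear axis from 0) of the 5 genes highest and the 5 lowest in the upper tercile of L2/3 cells relative to the lower tercile, with exact 95% counting intervals. Calb1 declines from 3.05 to 1.17, whereas Pcp4 is at 1.69 in the upper and 3.51 in the lower tercile.

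Most L2/3 cells carried the type label L2/3_B (1031 cells, 73.3%), and 226 carried none. L2/3_C had 34 cells and L2/3_A 11. The order by depth was L2/3_A at a median of 65.6 µm, L2/3_B at 117 µm and L2/3_C at 175 µm, but the quartiles of the 11 L2/3_A cells, 40.5 and 299 µm, spanned both other medians. Cntnap2, a neurexin-family adhesion protein, stood at 22.7 in L2/3_C and 3.98 in the other typed L2/3 cells (5.69, 4.55 to 7.05), with ratios from 1.24 to 10.8 over the regions. Ptprn2 (4.19, 2.64 to 6.40), the potassium channel Kcnq5 (3.29, 2.58 to 4.16), Frmpd4 (2.66) and Marchf1 (2.36) were next. L2/3_C was called higher for 31 of 1447 genes (2.14%) and lower for 143 (9.88%). Genes could pass the filter through the 1042 cells of the other types alone, so these counts are not compared with each other. With the filter on the mean level these counts were 88 and 137, with 1 region left out 41 to 53 genes were higher, and of the 31 genes 4 were called with first-round labels.

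L2/3_B was called higher than the other types for 120 of the 1447 genes (8.29%) and lower for 26 (1.80%), and that contrast rested on the 45 cells of the other types. With the filter on the mean level the counts were 127 and 86, without region 1 there were 70 higher, without region 2, 3 or 4 there were 41 to 47 lower, and none of the 26 lower genes was called with first-round labels. Its 5 highest genes, Snu13, Matk, Wdr82, Icam5 and Rprd1a, had 206 to 246 UMIs in L2/3_B and 0 or 1 in the others, so that they passed the filter through L2/3_B alone and are no evidence of a difference. Genes that distinguish L2/3 types in finer data were sparse. Over all 1406 cells Cdh13 had 99 UMIs, Trpc6 49, Chrm2 22, Adamts2 15, Rrad 4 and Agmat 3. Of the 99 Cdh13 UMIs, 11 fell in the 11 cells of L2/3_A, a level of 6.51 against 0.464 in L2/3_B.

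In 104 L2/3 cells the type label belonged to another subclass, in 68 of them to L4. These 68 cells lay at a median depth of 199 µm, between the L2/3 cells with an L2/3 type (120 µm) and L4 cells (261 µm). Against the 1076 L2/3 cells with an L2/3 type, 49 of 1567 genes (3.13%) were higher in them and 149 (9.51%) lower. Genes could pass the filter through the 1076 cells alone, so these counts are not compared with each other. Their Lrrtm4 was at 4.52 (3.22 to 6.19), above the 2.65 of L4 cells and below the 12.4 of all L2/3 cells, and Kcnip4 was at 6.73 (5.11 to 8.70). Rorb was at 0.696 (0.255 to 1.52), below the 2.78 of L4 cells and not different from the 0.642 of L2/3 beyond counting error. Calb1, at 2.78 (1.78 to 4.14), was not below the 2.21 of all L2/3 cells. The highest called genes were Pcdhga1 (2.37), the AMPA receptor regulator Cacng2 (2.21) and the lactate dehydrogenase subunit Ldhb (2.20).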

How the data were processed

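With the Stereo-seq Analysis Workflow, the authors aligned mouse reads to GRCm39, summed UMIs over segmented cells and deposited these counts per gene and cell without normalization, with positions, V1 regions and labels. They kept cells with at least 50 genes and 100 UMIs. Labels came from 50 snRNA-seq neighbors per cell, with 100, 75 and 50% agreement required in rounds 1 to 3. Files of the opossum were used only to count cells, and no cell identifier was shared between both samples. How doublets were treated is not given in the sources used here, and none were removed.

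From the deposited counts, levels were computed as UMIs per 10000 of the UMIs summed over cells, with exact Poisson intervals, and ratios with exact conditional binomial intervals, all at 95%. Shares have exact Clopper-Pearson intervals. All intervals cover counting error only. Genes needed 200 UMIs over both sides and were called at 1.5-fold in 1 direction in all 4 regions. Named were the 12 highest and 10 lowest called genes against the other subclasses, L4 and L5IT, the 5 highest at each end of depth and in each type with 25 cells, and listed genes, of which a few are not reported here. Depth was scaled to the tallest region. Matched comparisons needed 5 cells per 50 µm bin. Of 61317 features, 61249 matched GENCODE by identifier, and 21792 of these carry another symbol in the files, such as Fam19a1 for Tafa1. Members and lists were chosen with earlier results of these data known. Comparisons with non-neuronal cells and by L4 type were added after seeing the data, and genes named from them were chosen after their values were seen. Alternatives were another gene filter, stricter cell filters, first-round labels, means over cells, equal weights of subclasses and each region left out. Python 3.11.15, numpy 2.4.6, scipy 1.17.1 and pandas 2.3.3 were used.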

Additional observations from a re-analysis of the deposited data

How the results depend on the processing

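Requiring 50 summed UMIs per gene gave more calls: 279 higher and 452 lower against the other subclasses, 241 and 308 against L4, 598 and 245 against L5IT, 826 and 107 for L2/3_B, 91 and 1022 for L2/3_C, and 210 and 176 for the upper over the lower tercile. Requiring a mean level of 1 per 10000, chosen after seeing the data, gave 40 and 32 against the other subclasses, 29 and 32 against L4, 90 and 89 against L5IT, 80 and 46 for the terciles, 86 lower for L2/3_B and 88 higher for L2/3_C. Weighting the other subclasses equally gave 229 higher, matched depth gave 107 higher than L4, and means over cells gave 26 lower in the upper tercile. With first-round labels only, 37 genes were lower than in L5IT (29 cells), 17 lower in L2/3_B, 16 higher in L2/3_C, and 9 higher and 7 lower in the upper tercile, and the level of Cux2 was 2.55 and that of Rasgrf2 2.99. With any 1 region left out there were 103 to 119 genes higher and 146 to 162 lower than the other subclasses, 47 to 68 and 65 to 71 against L4, 84 to 151 and 43 to 70 against L5IT, 70 to 140 and 25 to 47 for L2/3_B, 41 to 53 and 98 to 175 for L2/3_C, and 17 to 35 and 9 to 20 for the terciles. The genes changed more than these counts. Against the other subclasses, 65 to 86 of the 104 higher and 82 to 115 of the 154 lower genes were called again. Against L4 these were 33 to 47 of the 63 and 43 to 52 of the 70. Only the remaining regions then had to share a direction. Without region 1 the counts were 84 and 43 against L5IT, 70 higher for L2/3_B, and 17 and 9 for the terciles. Of the first-round calls against the other subclasses, 53 of 95 higher and 65 of 134 lower were also called with all labels. Against L4 these were 27 of 73 and 35 of 78, and against L5IT 34 of 115 and 7 of 37. For the types they were 0 of the 17 lower in L2/3_B and 4 of the 16 higher in L2/3_C. For named genes, 724 values under these settings moved by less than the SD over regions and 1 turned direction. The latter was the log2 ratio of Ptprt to L5IT, at 0.68 with first-round labels. The other 77 moved by more or had no such SD. First-round labels alone gave 34 of the 77, beside 47 values that moved by less. The filters at 50 summed UMIs and at a mean level of 1 leave the ratio of a gene unchanged. Their 81 values each among the 724 thus could not move, and their 4 each among the 77 lacked an SD over regions. Each other setting gave 1 to 7, so the total says little about how values depend on the labels. The cause of these changes was not tested, other than that fewer genes or cells enter some settings. No paired analysis was possible because each species has 1 sample.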

Other observations

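The type label Micro was carried by 22 L2/3 cells, at a median depth of 496 µm, and L6IT_A by 7, at 564 µm. A further 32 cells had the subclass label L2/3 without the glutamatergic class, 27 of non-neuronal and 5 of GABAergic class, and were left out of all values above.

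Genes lower in L2/3 than in non-neuronal cells at matched depth were led by Npas3 (0.231), Htra1 (0.253), Prex2 (0.274) and the proteoglycan Gpc5 (0.283). Of 6 astrocyte markers tested, Apoe, Mfge8, Slc1a2 and Slc1a3 were lower in L2/3, and of 3 vascular and meningeal markers all were lower (Cldn5, Flt1 and Ptgds).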
